A study of Mus musculus with 18 samples.

Results

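The genes described here carry out the inflammatory forms of cell death. They are 8 genes: the caspases Casp1, Casp4 and Casp8, the death receptor Fas, the BH3 protein Bid, and the necroptosis genes Ripk3, Mlkl and Zbp1. Every probe of the array that the deposited table annotated with 1 of these symbols was taken, which gave 16 of 45281 probes and 8 of 30869 symbols. Of these 16 probes, 14 were detected on enough arrays to be tested, among 21938 tested probes in all. At least 1 probe of each of the 8 genes was tested.

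The epithelium of the colon was isolated by cell sorting as cells positive for EpCAM and negative for markers of leukocytes (CD45), T cells (CD3) and macrophages, and its RNA was read on Illumina MouseWG-6 BeadChips with probes of 50 bases. The mice were on a C57BL/6 background and 8 to 22 weeks old, and were either wild type (WT) or Mbd2-/- (Mbd2KO). Mbd2 is a protein that binds methylated CpG dinucleotides and recruits repressors of transcription. DSS_WT and DSS_KO mice had received 2% dextran sulphate sodium (DSS), which damages the gut lining and causes colitis, in drinking water for 6 days, and Naive_WT and Naive_KO mice had not. Each group held 4 samples after 2 repeat arrays were averaged with their namesakes, and a sample could pool 1 to 5 mice by the series' description (up to 10 by the methods, which cover other sorted cells too). The experiment or BeadChip that each sample came from was not given in the sources used here, so neither could be set beside a result.

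Caspase-1 is activated by inflammasomes and matures the cytokines IL-1β and IL-18, and caspase-4 (caspase-11 of the mouse) senses cytosolic lipopolysaccharide. Both cleave gasdermin D, which perforates the membrane in pyroptosis. Caspase-8 is switched on below Fas and other death receptors, and carries the signal to mitochondria by cleaving Bid. It also restrains necroptosis, in which Ripk3 phosphorylates Mlkl and Mlkl ruptures the membrane. Zbp1 is an interferon-inducible sensor of Z-form nucleic acids that engages Ripk3. In the intestine, epithelial caspase-8 is known for preventing necroptosis, and caspase-11 for shedding infected epithelial cells.

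The probes on which the results rest are shown first, since 5 of the 8 genes were read by more than 1 tested probe and these did not always give the same call. The Mlkl probes, for which the table gives transcript starts of 1404 and 1443, share 10 bases by sequence, which are in capitals. Whether both starts refer to the same transcript record was not checked. In the Casp4 probe the capitals are the 6 bases that map to a first block of the genome, with the other 44 bases in a second. The Ripk3 probe was the only one for its gene, and the Fas probe was the dimmer of the 2 tested. All are written 5′ to 3′ as in the deposited table.
Mlkl ILMN_3006767: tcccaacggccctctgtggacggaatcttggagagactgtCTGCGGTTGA
Mlkl ILMN_2504397: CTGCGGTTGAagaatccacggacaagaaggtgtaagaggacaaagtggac
Casp4 ILMN_2811737: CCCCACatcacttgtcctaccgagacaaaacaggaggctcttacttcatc
Ripk3 ILMN_2750356: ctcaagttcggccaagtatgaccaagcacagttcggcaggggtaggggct
Fas ILMN_2479290: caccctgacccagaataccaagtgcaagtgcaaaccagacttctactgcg

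The table gives no genome position for the first Mlkl probe and places the second on the minus strand of chromosome 8 (113835909 to 113835958). It places the Casp4 probe on the plus strand of chromosome 9 in 2 blocks (5327314 to 5327319 and 5328433 to 5328476). The Ripk3 probe lies on the minus strand of chromosome 14 (56404054 to 56404103) and the Fas probe on the plus strand of chromosome 19 (34391081 to 34391130). The genome build of these positions is not stated in the table.

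The labelled cell type was checked first. All 10 epithelial markers were detected on every array of all 4 groups, and their summed intensity ran from 63500 to 78600 over the 16 samples. The 1 probe for Mbd2 was below detection on all 18 arrays, so the targeted gene checked neither genotype label. RNA of other cells differed between groups. Summed over 10 myeloid markers, intensity ran from 1180 to 1640 intensity units in Naive_WT, 1430 to 2850 in Naive_KO, 2020 to 4300 in DSS_WT and 3530 to 4120 in DSS_KO, with Itgam detected in no group and Ptprc and Fcgr1 on no naive array. Summed over the 6 neutrophil markers on the array it was 37.4 to 59 in naive samples and 88.2 to 2390 in DSS samples. T and NK markers summed to at most 109 and B and plasma cell markers to at most 487. The 11 stromal markers summed to 6400 to 12400 in Naive_WT, 5730 to 7410 in Naive_KO, 9940 to 12800 in DSS_WT and 5520 to 7480 in DSS_KO. In sorted bulk cells, fewer cells of a type and less RNA per cell cannot be told apart.

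**Figure D1:**
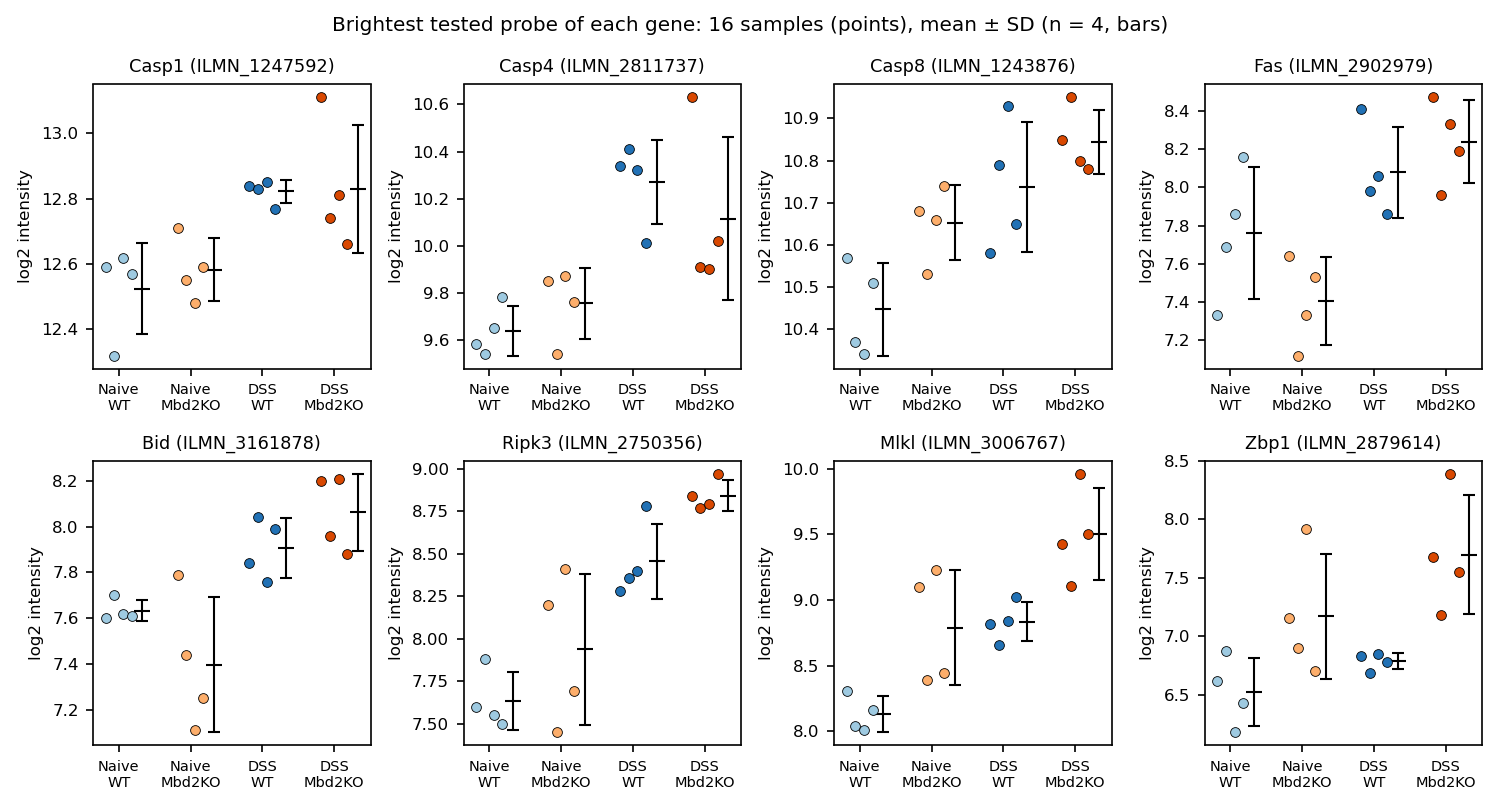
Normalised log2 intensity (y axis, own scale in each panel) of the brightest tested probe of each of the 8 genes in the 16 samples (points) by group (x axis), with bars for mean ± SD (n = 4). Ripk3 lay above all naive WT samples in all 4 DSS_WT samples, and Zbp1 lay in a narrow range in DSS_WT (6.69 to 6.85) below all DSS_KO samples (7.18 to 8.39).

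With DSS, Mbd2KO was compared with WT in the injured epithelium. The study reported more severe colitis in DSS-treated Mbd2-/- mice than in WT. Loss of Mbd2 and severity of injury therefore cannot be told apart in this comparison. Of the necroptosis genes, Mlkl and Zbp1 were each higher in DSS_KO by 1 of their 2 probes, and Ripk3 and the caspases did not pass. Of the 14 tested probes 2 passed an adjusted p of 0.05 (limma), both higher in DSS_KO, where 2.46% of all tested probes were called higher and 5.62% were called in either direction. Of the 8 genes by their brightest probe only Zbp1 passed. No member probe reached the stricter thresholds of the study (adjusted p under 0.01 with an absolute log2 fold change of at least 1), which 0.862% of all probes did. The median log2 fold change of the 8 genes was 0.16, against -0.0031 for all tested probes.

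Zbp1, by probe ILMN_2879614, had log2 intensities of 6.83, 6.69, 6.85 and 6.78 in DSS_WT and of 7.68, 7.18, 8.39 and 7.55 in DSS_KO. Every DSS_KO sample was above every DSS_WT sample, and replicate 7 of DSS_KO was the highest. The difference was 1.88-fold (log2 fold change 0.91, SE 0.251, adjusted p = 0.0431), and it did not pass without the filter on dim probes, without background correction or with the repeat arrays left out. In 9 of 16 fits that left out 1 sample it did not pass (adjusted p at most 0.12), namely those without DSS_WT replicates 1, 2, 3 or 4, DSS_KO replicates 5, 7 or 8, Naive_WT replicate 9 or Naive_KO replicate 13.

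The other Zbp1 probe, ILMN_1228653, was detected on 4 of 5 DSS_KO arrays, 2 of 4 Naive_KO arrays and none of the 9 WT arrays. It met the filter for testing only through Mbd2KO arrays, so it adds no separate support. Its mean log2 intensity was 5.47 in DSS_KO and, not above background, 4.62 in DSS_WT. Measured against the dimmest detected signal of each DSS_WT array, the mean of DSS_KO was at least 1.48-fold higher by this probe. The limma fit did not pass (adjusted p = 0.089), and its 95% interval on the log2 scale ran from 0.25 to 1.45. Replicate 6 of DSS_KO (4.84) was below the mean of these dimmest signals, 4.90, so no order of the single samples is read from this probe.

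Mlkl, the executor of necroptosis, was the other gene with a passing probe. By ILMN_2504397 its log2 intensities were 5.42, 5.32, 5.27 and 5.53 in DSS_WT and 5.81, 5.86, 6.32 and 6.53 in DSS_KO. The groups were separate, at 1.67-fold (log2 fold change 0.74, SE 0.18, adjusted p = 0.0243). This probe was detected on all 18 arrays but was dim. Its signal before normalization was 111 to 230 units, where the mean of the negative controls of an array was 101 to 134. In the 11 alternatives that kept all samples it passed, with a log2 fold change as low as 0.27. The brighter probe ILMN_3006767 gave log2 intensities of 8.82, 8.66, 8.84 and 9.02 in DSS_WT against 9.43, 9.11, 9.96 and 9.50 in DSS_KO. These groups were separate as well, and the log2 fold change was 0.67 with an SE of 0.194 (adjusted p = 0.0551). Leaving out DSS_WT replicate 2 or DSS_KO replicates 7 or 8 left the dimmer probe short of the threshold (adjusted p at most 0.0804), and each of these 3 fits left none of the 14 probes passing.

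Ripk3, the kinase upstream of Mlkl, had log2 intensities of 8.28, 8.36, 8.40 and 8.78 in DSS_WT and 8.84, 8.77, 8.79 and 8.97 in DSS_KO. The ranges met at 1 sample (8.78 against 8.77), and the difference of 0.39 on the log2 scale (SE 0.178) did not pass (adjusted p = 0.208). Casp8 had separate groups by ILMN_3097868, from 9.96 to 10.19 in DSS_WT and from 10.28 to 10.45 in DSS_KO, without passing (log2 fold change 0.32, adjusted p = 0.0914), and by the brighter ILMN_1243876 its groups overlapped (0.11, adjusted p = 0.597). In all, 5 of the 14 probes had values that did not overlap, against 14.7% of all tested probes, and 1 of the 5 was Zbp1 ILMN_1228653, with DSS_WT values not above background.

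Casp1 differed by a log2 fold change of 0.0068, with a 95% interval from -0.23 to 0.24. Casp1 was the most intense of the member probes, at 4210 to 9780 units before normalization, where the brightest probe of an array stood at 26400 to 33600. Casp4 by its brightest probe differed by -0.16 (interval -0.48 to 0.16), Fas by 0.16 (-0.22 to 0.53) and Bid by 0.16 (-0.13 to 0.44). For these 4 genes the intervals hold 0 and leave out a doubling in either direction, and smaller differences could not be told from the spread between samples. The sign for Casp1 turned with median scaling.

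Among markers of other cells, 6 of 11 tested stromal markers and 1 of 4 tested T and NK markers were lower in DSS_KO, and none of 7 myeloid and none of 3 neutrophil markers passed between the DSS groups. Their part in the difference of Zbp1 and Mlkl was not tested.

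**Figure D2:**
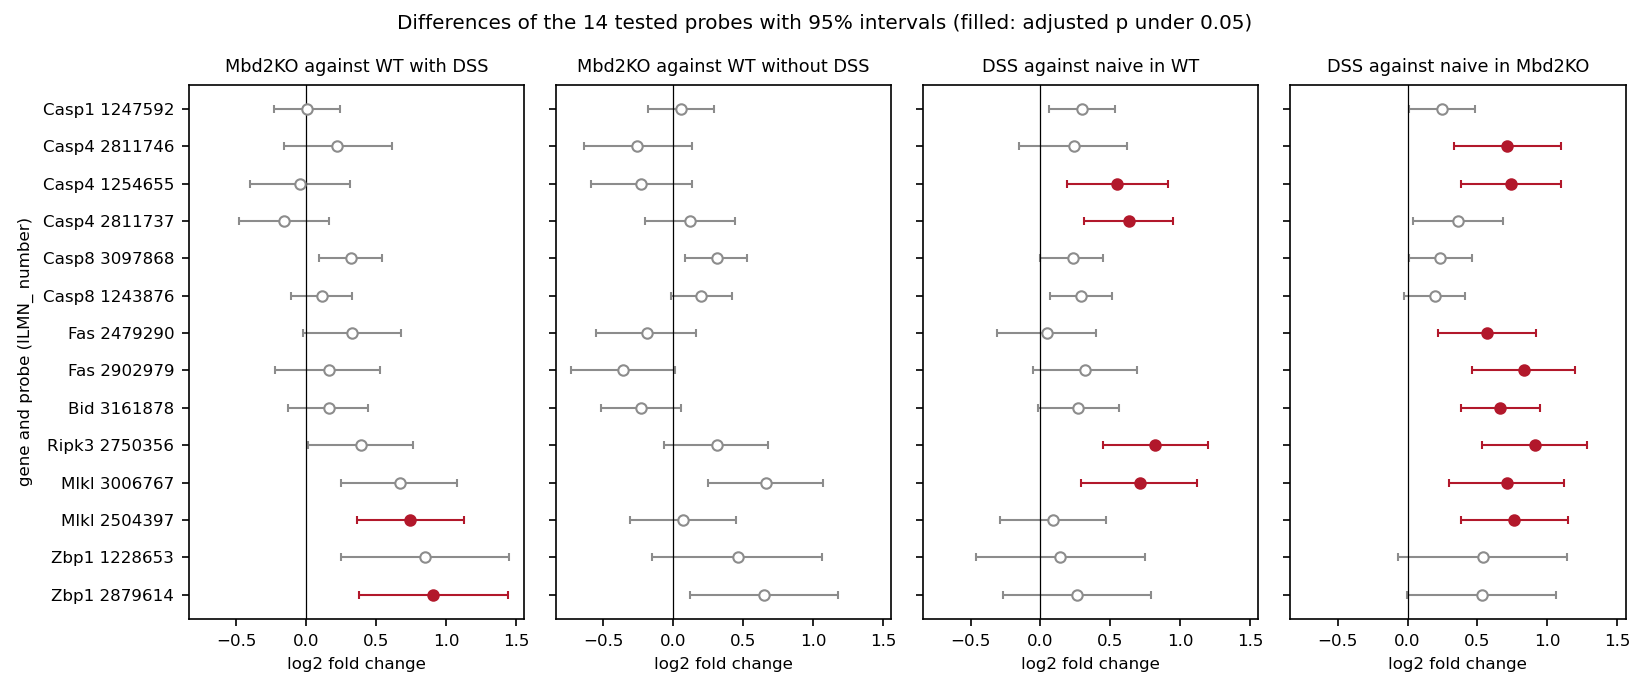
Log2 fold change (x axis) of the 14 tested probes (y axis) in the 4 comparisons, one panel each, with 95% intervals (filled points had an adjusted p under 0.05). No point lies left of 0 in the 2 comparisons of DSS with naive, and the filled points of the genotype comparison with DSS are 1 Mlkl and 1 Zbp1 probe.

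Without DSS, none of the 14 probes passed between Naive_KO and Naive_WT (limma), where 5.2% of all tested probes did (2.43% higher). At an unadjusted p under 0.05, 22.8% of all tested probes passed, and of the member probes these were Casp8 ILMN_3097868, Mlkl ILMN_3006767 and Zbp1 ILMN_2879614. The median log2 fold change of the 8 genes was 0.16, against -0.00093 for all tested probes, and 9 of 14 probes had a positive one.

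Mlkl had the largest value of the 8 genes in this comparison. By ILMN_3006767 its log2 intensities were 8.31, 8.04, 8.01 and 8.16 in Naive_WT and 9.10, 8.39, 9.23 and 8.44 in Naive_KO. The groups were separate, and the log2 fold change was 0.66 (SE 0.194, adjusted p = 0.0586). Probe ILMN_2504397 differed by 0.071 (interval -0.31 to 0.45), with overlapping groups, so only 1 of the Mlkl probes had separate groups without DSS. That probe was dim, and the offset understates changes of dim probes. Separate groups were also seen for Casp8 ILMN_3097868 (9.66 to 9.98 in Naive_WT, 10.02 to 10.30 in Naive_KO, log2 fold change 0.31, adjusted p = 0.0998). These 2 of 14 probes compare with 12.2% of all tested probes.

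Zbp1 (ILMN_2879614) measured 6.62, 6.87, 6.18 and 6.43 in Naive_WT and 7.16, 6.90, 7.92 and 6.70 in Naive_KO, a difference of 0.65 on the log2 scale (SE 0.251, adjusted p = 0.138). Ripk3 measured 7.60, 7.88, 7.55 and 7.50 in Naive_WT and 8.20, 7.45, 8.41 and 7.69 in Naive_KO, with a log2 fold change of 0.31 (adjusted p = 0.318). In Mlkl and Ripk3, and by ILMN_2879614 in Zbp1, replicates 13 and 15 of Naive_KO lay above replicates 14 and 16. The summed myeloid markers of these samples were 2850 and 2600 in replicates 13 and 15, and 2030 and 1430 in replicates 14 and 16, and 1 of 7 tested myeloid markers was higher in Naive_KO than in Naive_WT. Their part in the levels was not tested.

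Fas and Bid were the genes with the lowest values. Fas (ILMN_2902979) had a log2 fold change of -0.36 (interval -0.73 to 0.015) and Bid of -0.23 (-0.52 to 0.052), and the groups overlapped in both. Casp1, whose sign turned with median scaling, differed by 0.057 (-0.18 to 0.29) and Casp4 by 0.12 (-0.20 to 0.44) by its brightest probe and by -0.26 and -0.23 by its other probes, none of which passed.

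DSS against naive in WT asked how these genes respond to injury when Mbd2 is present. Ripk3, Mlkl and Casp4 rose. Of 14 probes 4 passed, all higher with DSS, where 5.68% of all tested probes were called higher and 10.4% in either direction. These were 3 of the 8 genes by their brightest probe. All 14 probes had a positive log2 fold change, with a median of 0.31 over the 8 genes against -0.01 for all tested probes. The groups were separate for 7 of 14 probes, against 17% of all tested probes.

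Ripk3 rose from 7.60, 7.88, 7.55 and 7.50 in Naive_WT to 8.28, 8.36, 8.40 and 8.78 in DSS_WT (log2 intensity). All DSS samples were above all naive ones, at 1.77-fold (log2 fold change 0.82, SE 0.178, adjusted p = 0.00818). Mlkl rose by ILMN_3006767, from 8.01 to 8.31 in Naive_WT to 8.66 to 9.02 in DSS_WT (log2 fold change 0.71, SE 0.194, adjusted p = 0.03). By the dim ILMN_2504397, whose changes the offset understates, it differed by 0.092 (adjusted p = 0.792), with overlapping groups.

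Casp4 rose from 9.58, 9.54, 9.65 and 9.78 to 10.34, 10.41, 10.32 and 10.01 by its brightest probe, with separate groups (log2 fold change 0.63, SE 0.151, adjusted p = 0.0146). Probe ILMN_1254655 gave 0.55 (adjusted p = 0.0476) and the dimmest, ILMN_2811746, gave 0.24 (adjusted p = 0.438). Casp1 had separate groups in WT, from 12.32 to 12.62 without DSS and from 12.77 to 12.85 with it, but the difference of 0.30 on the log2 scale did not pass (SE 0.112, adjusted p = 0.0999). Zbp1 (0.26, adjusted p = 0.546), Fas (0.32, adjusted p = 0.264), Bid (0.27, adjusted p = 0.213) and Casp8 (0.29, adjusted p = 0.0843) did not pass either. With median scaling Casp1, Fas, Bid and Casp8 passed by these probes and Zbp1 did not, where 22.4% of all tested probes were called higher.

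The values for Ripk3 and for the brightest Casp4 probe passed in all 16 fits that left out 1 sample. Leaving out DSS_WT replicates 3 or 4 or Naive_WT replicates 10, 11 or 12 lowered the count to 2 each time, and in each of these fits Mlkl and Casp4 ILMN_1254655 no longer passed. The latter also missed the threshold without DSS_WT replicates 1 or 2, DSS_KO replicate 8, Naive_WT replicate 9, or Naive_KO replicates 13, 14 or 16. With the filter on dim probes left out the count was 2, and with median scaling 9, where 22.4% of all tested probes were then called higher.

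In Mbd2KO mice, 8 of 14 probes passed with DSS, all higher, where 4.89% of all tested probes were called higher and 9.44% in either direction. They belonged to Casp4, Fas, Bid, Ripk3 and Mlkl, and to 4 of the 8 genes by the brightest probe. The median over the 8 genes was 0.59, against -0.016 for all tested probes. The groups were separate for 9 of 14 probes, against 15.9% of all tested probes.

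Ripk3 rose to 8.84, 8.77, 8.79 and 8.97, above all 4 Naive_KO samples given above, at 1.87-fold (log2 fold change 0.91, SE 0.178, adjusted p = 0.00507). Fas, the death receptor, measured 7.64, 7.12, 7.33 and 7.53 in Naive_KO and 8.47, 7.96, 8.33 and 8.19 in DSS_KO by ILMN_2902979. The groups were separate, at 1.78-fold (log2 fold change 0.83, SE 0.176, adjusted p = 0.00793), and the second probe, shown above, gave 0.57 (adjusted p = 0.0411). That second value did not pass when DSS_KO replicates 5, 7 or 8 or any 1 of the 4 Naive_KO replicates were left out.

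Bid, which links caspase-8 to mitochondria, measured 7.79, 7.44, 7.11 and 7.25 in Naive_KO and 8.20, 7.96, 8.21 and 7.88 in DSS_KO. It rose 1.58-fold with separate groups (log2 fold change 0.66, SE 0.135, adjusted p = 0.00667). Mlkl rose by both probes, by 0.71 (SE 0.194, adjusted p = 0.0298) for ILMN_3006767, whose groups overlapped, and by 0.76 (SE 0.18, adjusted p = 0.0139) for ILMN_2504397, whose groups were separate. The first did not pass without DSS_KO replicates 5, 7 or 8 or Naive_KO replicates 14 or 16, and the second without DSS_KO replicate 8 or Naive_KO replicates 14 or 16. Neither passed in a fit to the 2 groups alone, nor did the first without the filter on dim probes. For ILMN_2504397 the log2 fold change ran down to 0.27 in other settings.

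Casp4 passed by 2 of its 3 probes, and these were not the pair that passed in WT. ILMN_1254655 had a log2 fold change of 0.74 (adjusted p = 0.0122) and ILMN_2811746 of 0.71 (adjusted p = 0.0212), which did not pass without DSS_KO replicates 5 or 8 or Naive_KO replicate 14. The brightest probe, ILMN_2811737, measured 9.85, 9.54, 9.87 and 9.76 in Naive_KO and 10.63, 9.91, 9.90 and 10.02 in DSS_KO and the groups were just separate, with a log2 fold change of 0.36 (adjusted p = 0.15). Replicate 5 of DSS_KO was the highest sample for Casp4 and Casp1 (13.11), and its summed neutrophil markers were 2390 against 170 to 543 in the other DSS_KO samples. The part of these cells in its caspase levels was not tested. The count of 8 passing probes became 5 without replicate 5, 4 without DSS_KO replicate 8 or Naive_KO replicate 14, and 13 with median scaling, where 19.4% of all tested probes were then called higher.

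Casp1 (0.25, adjusted p = 0.184), Casp8 (0.20, adjusted p = 0.258) and Zbp1 (0.53, adjusted p = 0.207) did not pass in Mbd2KO mice. By these probes all passed with median scaling, where 19.4% of all tested probes were called higher. With DSS, 6 of 7 tested myeloid markers and 2 of 3 tested neutrophil markers rose in each genotype, with median log2 fold changes of 1.51 and 2.25 in WT and 1.13 and 3.07 in Mbd2KO. In WT, 4 of 11 stromal and 2 of 4 T and NK markers also rose. Several of the 8 genes are also expressed by these cells, and the part of such cells in the rises with DSS was not tested.

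**Figure D3:**
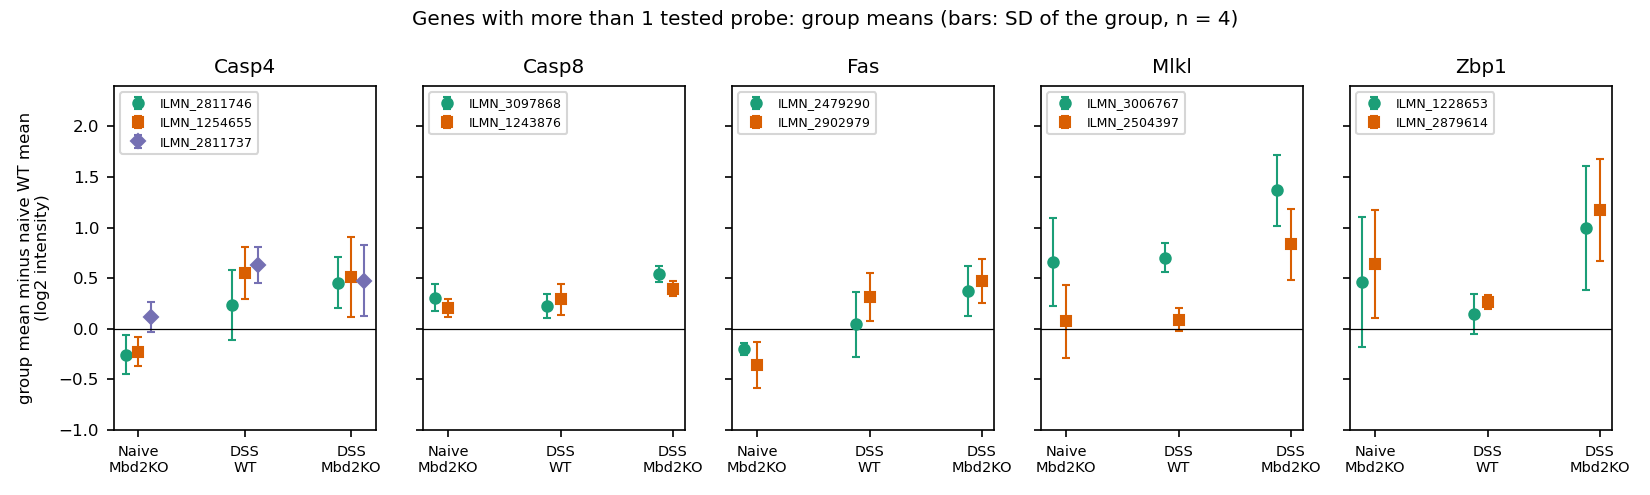
Group mean minus the naive WT mean (y axis, log2 intensity) for each tested probe of the 5 genes with more than 1, by group (x axis), with bars for the SD of the group (n = 4). Both Zbp1 probes stood highest in DSS Mbd2KO, and the Mlkl probes stood apart in naive Mbd2KO and DSS WT. Zbp1 ILMN_1228653 was detected on no WT array, so its reference is not above background and its differences are not exact.

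Whether the response to DSS differed between the genotypes was tested as an interaction. None of the 14 member probes and 0% of all tested probes passed (limma), while 10.7% of all tested probes had an unadjusted p under 0.05. Among the members those were Fas ILMN_2479290 and Mlkl ILMN_2504397, with adjusted p of 0.438 and 0.35. The 8 passing probes in Mbd2KO and the 4 in WT are therefore not shown to differ between genotypes. Over the 8 genes the difference of responses ran from -0.27 to 0.51, with a median of 0.043.

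The 4 groups were also ordered. Mean log2 intensity of Mlkl by its brightest probe was 8.13 ± 0.14 in Naive_WT, 8.79 ± 0.44 in Naive_KO, 8.83 ± 0.15 in DSS_WT and 9.50 ± 0.35 in DSS_KO (SD, n = 4). The middle groups were within their spread of each other (log2 fold change of Naive_KO against DSS_WT -0.044, adjusted p = 0.897), although with median scaling Naive_KO was lower (-0.52, adjusted p = 0.0498). Zbp1 ran 6.53 ± 0.29, 7.17 ± 0.53, 6.79 ± 0.069 and 7.70 ± 0.51 in the same order of groups, so the mean of Naive_KO lay between those of the DSS groups, while its samples (6.70 to 7.92) overlapped both, and its difference from DSS_WT did not pass (0.38, adjusted p = 0.301). Ripk3 had means of 7.63 ± 0.17, 7.94 ± 0.44, 8.45 ± 0.22 and 8.84 ± 0.088, and its middle groups did not pass (-0.52, adjusted p = 0.0552). By the brightest probe of Fas, Bid and Casp4, Naive_KO was lower than DSS_WT, by -0.67, -0.51 and -0.52 on the log2 scale (adjusted p 0.0159, 0.0181 and 0.0275), where 8.71% of all tested probes were called lower. The other Fas probe did not pass (-0.24, adjusted p = 0.331), and of the other Casp4 probes ILMN_1254655 passed (-0.78, adjusted p = 0.00608) and ILMN_2811746 did not (-0.49, adjusted p = 0.0712). By the brightest probes, Fas did not pass without Naive_KO replicate 14, Bid without DSS_WT replicates 2 or 4 or Naive_KO replicate 15, and Casp4 without DSS_WT replicates 1, 2 or 3 or Naive_KO replicates 14 or 16.

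**Figure D4:**
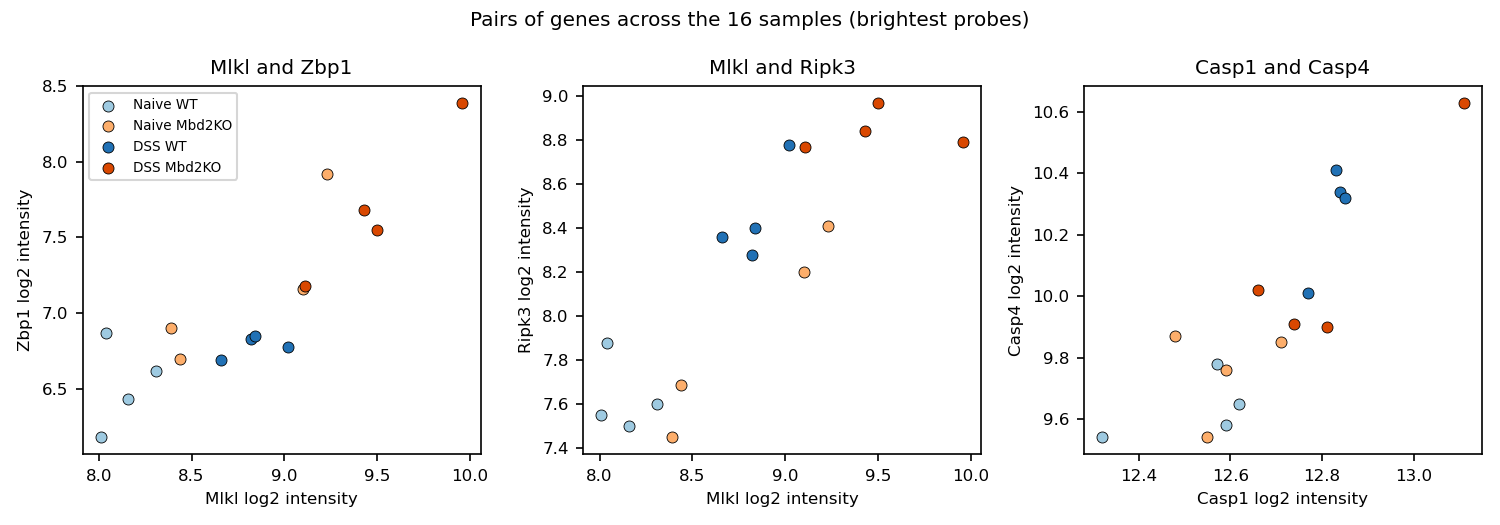
Log2 intensity of pairs of genes (x and y axes) in the 16 samples, coloured by group. Mlkl and Zbp1 were high in the same samples (r = 0.882), and in the plot of Casp1 and Casp4 replicate 5 of DSS_KO is the point at the upper right.

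Across the 16 samples, the levels of Mlkl and Zbp1 had a Pearson r of 0.882, and 0.813 after the group means were taken out. Ripk3 and Mlkl had 0.876 and 0.667, and Casp1 and Casp4 had 0.863 and 0.686. Casp1 and Zbp1 had 0.249 and -0.187. These are descriptions over 16 samples that share arrays and groups, and no test was made of them.

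The genes whose pattern was most like each member were sought among 15749 genes. For Mlkl they included the interferon-inducible GTPases Igtp (r = 0.96) and Gbp3 (0.959). For Zbp1 they were the genes listed as LOC223672 (0.944) and LOC630302 (0.907), with Tap2, a peptide transporter of antigen presentation, at 0.919. Ripk3 was nearest to Trafd1 (0.937), Mfsd2a (0.931) and Tyki (0.927). Casp8 was nearest to the chemokine Cxcl10 (0.902), Tnf (0.886) and Cd37 (0.878), which had 0.624, 0.566 and 0.519 after the group means were taken out.

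Casp1 was nearest to Arhgap30 (0.869), the chemokine Ccl5 (0.863) and Reg1 (0.861), Casp4 to Ibrdc3 (0.889), 2900057D21Rik (0.883) and Appl1 (0.882), and Bid to Aprt (0.88), Prrc2c (0.877, and 0.521 within groups) and E130301L11Rik (0.876). Fas was nearest to Itgb1 (0.852), Xkr9 (0.838) and Tnfrsf6 (0.832, and 0.542 within groups). Over all the genes named as nearest, the r within groups ran from 0.519 to 0.868. Tnfrsf6 is an older symbol of Fas itself, under which the table lists a dim probe, ILMN_2582933, that was not counted among the members. It was detected on all 5 DSS_KO arrays and on none of the Naive_KO arrays, and was at least 1.32-fold higher with DSS in Mbd2KO (adjusted p of the fit 0.00603).

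The rest of these pathways was examined in lists of other genes. Of 19 tested genes of inflammasomes and pyroptosis, 3 rose with DSS in WT and 4 in Mbd2KO, and none fell (median log2 fold change 0.13 and 0.15), where 5.68% and 4.89% of all tested probes were called higher. In the same comparisons most myeloid and neutrophil markers rose, as given above, and their part in these rises was not tested. Il1b, the cytokine that caspase-1 matures, rose by 2.56 in WT and 2.12 in Mbd2KO (adjusted p 0.000464 and 0.0016). Mefv, which encodes the sensor pyrin, was detected on 4 of 5 DSS_WT and 5 of 5 DSS_KO arrays and on no naive array, and was at least 1.66-fold higher with DSS in WT and at least 1.52-fold higher in Mbd2KO (adjusted p of the fit 0.00641 and 0.0108). It met the filter for testing only through DSS arrays. The inflammasome receptor Nlrc4 rose in WT by 0.62 (adjusted p = 0.00597). The adaptor Pycard rose in Mbd2KO by 0.90 (adjusted p = 0.0279), though not without DSS_KO replicates 5 or 8 or Naive_KO replicates 15 or 16.

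Il18, the other cytokine matured by caspase-1, was lower in DSS_KO than in DSS_WT, by -0.87 (SE 0.248, adjusted p = 0.0493), and the gasdermin Gsdma, detected on all 5 DSS_WT arrays and no DSS_KO array, was at least 1.52-fold lower (adjusted p of the fit 0.0389). Il18 passed in only 3 of 16 fits that left out 1 sample, those without DSS_WT replicate 4 or Naive_KO replicates 15 or 16, and Gsdma did not pass without DSS_WT replicates 1, 2 or 4 or any 1 of the 4 DSS_KO replicates. None of the 19 genes was higher between the genotypes, where 2.46% of all tested probes with DSS and 2.43% without it were. Gsdmd, the target of both pyroptotic caspases, had log2 fold changes from 0.049 to 0.42 over the 4 comparisons and passed in none (lowest adjusted p 0.132).

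In the death receptor pathway 11 genes were tested. Between genotypes 1 was higher and 1 lower with DSS, and 1 was higher without it, and with DSS against naive 1 was higher in WT and 2 were higher and 2 lower in Mbd2KO. Of all tested probes, 5.62%, 5.2%, 10.4% and 9.44% were called in these comparisons. Tnf was higher in Mbd2KO than in WT both with DSS (0.69, adjusted p = 0.0405) and without it (0.98, adjusted p = 0.00767), and rose with DSS in both genotypes (1.21 and 0.92, adjusted p 0.0009 and 0.0062). Summed myeloid markers ran from 1180 to 1640 in Naive_WT and from 1430 to 2850 in Naive_KO, and 6 of 7 rose with DSS in each genotype. Their part in the levels of Tnf was not tested. The receptor Tnfrsf21 was lower in DSS_KO than in DSS_WT (-0.73, adjusted p = 0.0257). With DSS, Tnf did not pass when any 1 DSS_WT replicate or DSS_KO replicates 5, 6 or 8 were left out, nor Tnfrsf21 without DSS_WT replicate 2 or DSS_KO replicates 5 or 8, and with median scaling Tnf passed in neither comparison of genotypes. In Mbd2KO the death ligand Tnfsf10 was higher with DSS (0.98, adjusted p = 0.00975), and Tnfrsf25 (-0.72, adjusted p = 0.0108) and Tnfrsf21 (-0.67, adjusted p = 0.0285) were lower, the last not without DSS_KO replicates 5 or 8 or Naive_KO replicate 16, nor with median scaling. The adaptor Fadd, which joins Fas to caspase-8, passed in no comparison (lowest adjusted p 0.357), and Cflar, the inhibitor of caspase-8, was too dim to be tested.

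Among 18 regulators of necroptosis none passed between the genotypes with DSS, 2 were higher without it, and 3 rose with DSS in WT and 1 in Mbd2KO, where 5.62%, 5.2%, 10.4% and 9.44% of all tested probes were called. Rbck1 and Rnf31, both subunits of the linear ubiquitin ligase that acts on Ripk1, were higher in Naive_KO than in Naive_WT (0.59 and 0.66, adjusted p 0.0108 and 0.00901) and rose with DSS in WT (0.40 and 0.65, adjusted p 0.0388 and 0.00498). Ripk1 passed in no comparison (lowest adjusted p 0.193). Adar, which edits double-stranded RNA and restrains Zbp1, rose with DSS in both genotypes (0.38 and 0.52, adjusted p 0.0383 and 0.00793). Between the naive groups Rbck1 did not pass with median scaling (adjusted p = 0.0789) or with a fit to these groups alone. In WT, Rbck1 did not pass without DSS_WT replicates 2, 3 or 4, DSS_KO replicate 8 or Naive_WT replicates 9, 10 or 11, nor Adar without DSS_WT replicates 1, 2 or 4 or Naive_WT replicates 9, 11 or 12.

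The Bcl2 family and the mitochondrial pathway gave 24 tested genes. Bcl2a1b and Bcl2a1d, near-identical copies whose probes may not tell them apart, rose with DSS in WT (1.78 and 1.81) and in Mbd2KO (1.67 and 1.76). Both encode survival proteins that leukocytes also express. Bak1, a pore-forming partner downstream of Bid, was higher in DSS_KO than in DSS_WT by 1.29 (SE 0.31, adjusted p = 0.0237), though not without DSS_WT replicate 2 or DSS_KO replicates 7 or 8. It was the 1 gene of 24 that passed in that comparison, in which 5.62% of all tested probes were called. Without DSS the 1 passing gene was Bik, which encodes a pro-apoptotic BH3 protein and was lower in Naive_KO than in Naive_WT (-0.79, adjusted p = 0.0226), but not without Naive_WT replicate 10 or Naive_KO replicates 13, 14 or 15 or in a fit to these groups alone, and 5.2% of all tested probes were called. With DSS, 4 genes of the list were higher and 2 lower in WT, and 4 were higher and none lower in Mbd2KO, where 10.4% and 9.44% of all tested probes were called. Those lower in WT were Pmaip1 (-0.94, adjusted p = 0.01), which encodes the pro-apoptotic protein Noxa, and Bcl2l14 (-0.40, adjusted p = 0.0494). Neither passed with median scaling, and Bcl2l14 passed in only 2 of 16 fits that left out 1 sample, those without Naive_WT replicate 10 or Naive_KO replicate 15.

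Of 15 tested regulators of interferon signalling, 4 were higher in DSS_KO than in DSS_WT and 5 in Naive_KO than in Naive_WT, and none was lower (median log2 fold change 0.12 and 0.11), where 2.46% and 2.43% of all tested probes were called higher. Stat2 was higher by 0.69 with DSS and 0.97 without it (adjusted p 0.0293 and 0.00537). Irf7 was higher by 0.90 and 1.34 (adjusted p 0.00923 and 0.000602), and Irf9 by 1.15 without DSS (adjusted p = 0.00171). With DSS, Stat2 did not pass without DSS_WT replicates 1 or 2 or DSS_KO replicates 5, 7 or 8. With DSS against naive, 8 of the 15 were higher and 1 lower in WT, and 5 were higher and 1 lower in Mbd2KO. The median log2 fold changes were 0.57 and 0.28, and 10.4% and 9.44% of all tested probes were called. Irf9 rose by 0.99 in WT (adjusted p = 0.00239), where Zbp1 did not pass (0.26, adjusted p = 0.546). Zbp1 is a known target of interferon, and it and these regulators were measured on the same arrays. A link between them was not tested.

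Upstream sequence was examined because Mbd2 binds methylated CpG and because interferon-inducible genes were among those nearest to Mlkl. RefSeq promoters (GRCm38.p6) were matched by symbol for 7 of the 8 genes, all but Zbp1, and the 250 bases before the start were read. The number of CG dinucleotides was 1 for Casp1, 3 for both Casp4 windows, 5 for Casp8 and Mlkl, 8 for Ripk3, 11 for Fas and 18 for Bid, where the median of 32851 windows was 6. Of all windows 78.3% had fewer than Bid and 81.2% had more than Casp1. Those of Mlkl, Ripk3 and Bid are shown with CG in capitals, for a gene that passed between genotypes, the gene with the largest rise with DSS in both genotypes, and the member with the most CG. They lie on the minus strand at chr8:111338206-111338455, chr14:55788858-55789107 and chr6:120916825-120917074.
Mlkl promoter: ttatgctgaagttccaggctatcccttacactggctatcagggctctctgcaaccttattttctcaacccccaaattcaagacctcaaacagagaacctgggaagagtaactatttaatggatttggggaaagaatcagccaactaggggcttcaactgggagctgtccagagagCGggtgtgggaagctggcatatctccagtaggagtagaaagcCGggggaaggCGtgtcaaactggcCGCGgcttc
Ripk3 promoter: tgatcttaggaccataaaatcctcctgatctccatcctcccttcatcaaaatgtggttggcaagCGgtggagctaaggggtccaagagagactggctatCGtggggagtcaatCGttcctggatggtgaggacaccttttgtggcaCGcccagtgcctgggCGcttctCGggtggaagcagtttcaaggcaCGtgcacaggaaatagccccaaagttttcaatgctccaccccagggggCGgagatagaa
Bid promoter: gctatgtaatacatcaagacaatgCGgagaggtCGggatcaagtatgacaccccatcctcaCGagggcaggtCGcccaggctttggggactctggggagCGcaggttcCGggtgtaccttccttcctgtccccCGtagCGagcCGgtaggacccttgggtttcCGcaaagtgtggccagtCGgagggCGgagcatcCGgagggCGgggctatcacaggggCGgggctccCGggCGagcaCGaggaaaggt

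The arrays did not measure methylation. The gamma-activated site, searched as TTCNNNGAA on both strands, was in 1 of the 8 member windows, that of Fas, and in 7.02% of all windows. The interferon-stimulated response element, searched on both strands as GAAA, any 2 bases and GAAA, was in none of the 8 windows and in 2.98% of all windows. These windows include 2 overlapping ones of Casp4 and none of Zbp1, which was not searched. A match is only a match of letters in this window.

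Of the 2 untested probes, Fas ILMN_2454420 was detected on none of 18 arrays and Bid ILMN_2757287 on 3 of 18, so neither gave a level.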

How the data were processed

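Total RNA of 18 arrays was measured. Per the file headers, the deposited signal intensity is the mean bead intensity per probe, without normalization or background subtraction. The deposited table also gives a detection p-value against the array's negative controls. It also holds bead numbers and bead standard errors, which were used only to describe arrays. The submitters' processing notes name lumi and limma, with their versions not given in the sources used here.

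Background correction used 936 negative controls, and quantile normalization and log2 transformation followed (neqc, offset 16, limma 3.58.1, R 4.3.3). No log2 values of the authors were used. A probe was tested if it was detected (p-value under 0.05) on 4 arrays or more (23343 were removed). Between 18851 and 20618 probes were detected per array. Only 4 samples a group limited the precision. Arrays 4R and 5R, whose added letter the labels do not explain, were averaged with 4 and 5: the SD of their log2 difference was 0.194 and 0.236, against 0.334 to 0.482 and 0.287 to 0.419 for the other pairs of their groups. The labels do not say that samples came from separate animals throughout, so p-values measure the spread between these samples.

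A single limma model held the 4 group means (12 residual and 4.71 prior degrees of freedom, two-sided, Benjamini-Hochberg over 21938 probes), after a test on simulated data. Fold changes are on the log2 scale of intensity with the offset, which understates changes of dim probes. A probe passed at an adjusted p under 0.05. The comparison of Naive_KO with DSS_WT was added after the data were seen, to order groups. Comparisons that share a group are not independent. The members and the lists were chosen with earlier results of these data known. The named genes were all members, the 3 genes with the highest r to each member's brightest probe, and list genes past the study's thresholds or among 9 close partners of the members. Nlrc4, Gsdma, Tnfrsf21, Tnfrsf25, Tnfsf10, Pmaip1, Bcl2l14, Bik, Rbck1, Rnf31, Adar, Bak1 and Stat2 as list genes were named after their values were seen. Some genes that these rules name, and the list of other caspases, are not reported here. Of a gene with several probes, the brightest stands for it in lists. Symbols of list genes were updated through Entrez identifiers (65.3% of probes matched, RefSeq GRCm38.p6, names only).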

Additional observations from a re-analysis of the deposited data

Results flagged for a closer look

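In 3 of 56 combinations of a tested member probe and a group, 1 of the 4 samples was marked by Dixon's ratio. This is the gap to the nearest sample over the range of the group, so a small gap can be marked, as for Bid. Chance alone marks about 1 in 20 such groups. Bid ILMN_3161878 had a log2 intensity of 7.70 in Naive_WT replicate 10, against 7.60 to 7.62 in the others. Casp1 ILMN_1247592 had 12.32 in the same sample, against 12.57 to 12.62. Casp4 ILMN_2811737 had 10.63 in DSS_KO replicate 5, against 9.90 to 10.02.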

How the results depend on the processing

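In the comparisons of genotype and of DSS, 14 results of single member probes passed, and 6 of them passed under all 27 alternatives of processing, model and samples at the same threshold. None of the 14 reversed. The number of passing probes moved as follows. For Mbd2KO against WT with DSS it was 2, and became 1 with no filter on dim probes, 5 with all 18 arrays as separate replicates, 4 with array weights and 0 at the study's thresholds. Without DSS it was 0, and became 1 with no background correction, with 18 separate arrays and with a robust variance trend. For DSS in WT it was 4, and became 9 with median scaling, 2 with no filter and 0 at the study's thresholds. For DSS in Mbd2KO it was 8, and became 13 with median scaling and 0 at the study's thresholds. Median scaling in place of quantile normalization moved the median of all probes with DSS to 0.24 in WT and 0.23 in Mbd2KO, and 12 and 14 of the 14 member probes lay above these medians. With it, 24% and 20.8% of all tested probes were called. It raised the share of higher among all calls from 54.4% to 93% in WT and from 51.8% to 93.1% in Mbd2KO, and lowered it from 43.8% to 30.1% and from 46.8% to 28.2% between genotypes with and without DSS. Leaving out 1 sample gave 0 to 4, 0 to 1, 2 to 4 and 4 to 8 passing probes in these 4 comparisons. The interaction had 0 throughout.

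Values near 0 changed sign in some settings, none of them past the threshold. Between genotypes with DSS, Casp1 had -0.11 with median scaling and -0.043 with array weights (-0.086 to 0.063 with 1 sample left out), Casp8 ILMN_1243876 had -0.026 with median scaling, and Casp4 ILMN_1254655 had 0.1 with 18 separate arrays (-0.23 to 0.071 with 1 sample left out). Without DSS, Casp1 had -0.076 with median scaling (-0.013 to 0.09 with 1 sample left out) and Mlkl ILMN_2504397 had -0.0051 with array weights (-0.051 to 0.19). With 1 sample left out, Fas ILMN_2479290 ran from -0.088 to 0.15 for DSS in WT, and Mlkl ILMN_3006767 from -0.19 to 0.089 for Naive_KO against DSS_WT. The causes were not tested. Without the filter on dim probes the calls of Fas ILMN_2479290, Pycard, Gsdma, Il18, Tnfrsf21 and Bak1, of Tnf and Stat2 between genotypes with DSS, and of Casp4 ILMN_1254655, Mlkl ILMN_3006767 and Bcl2l14 for DSS in WT were lost. In fits to the groups compared, those of Pycard and Tnfrsf21 for DSS in Mbd2KO, of Rbck1, Adar and Bcl2l14 for DSS in WT, and of Bid for Naive_KO against DSS_WT were lost. No paired analysis was possible because the groups share no replicate numbers. A BeadChip block was not run, since no BeadChip was given in the sources used here.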
